A study of Mus musculus with 13 samples.

Results

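The genes described here make, sense and break down prostaglandins: Ptgs1, Ptgs2, Ptges, Ptges2, Ptges3, Ptgis, Pla2g4a, Ptger4, Hpgd and Ptgr1. They were chosen by symbol, matched through the mouse GRCm39 annotation to the gene identifiers of the count tables, and are 10 of the 57010 genes listed. RNA of wild-type mouse embryonic fibroblasts (MEFs) was sequenced in 4 groups, each with cells of mice 4, 5 and 6. Control cells were untreated. Senescent cells had been exposed to 2 µM etoposide, a topoisomerase poison that damages DNA, for 24 h and were then held without it for 5 days. The labels mark the treated senescent samples Eto and the untreated ones Eo, and both are read here as etoposide from the study's methods. The other groups were senescent cells given Fucoidan-FV at 100 µg/mL or 300 µg/mL, with RNA taken after 12 h. Fucoidan-FV is a polysaccharide rich in sulfate, taken from Fucus vesiculosus, a brown seaweed. All groups were kept at 3% oxygen. Senescence therefore means 1 inducer in 1 cultured cell type here, and no non-senescent cells given Fucoidan-FV were analysed. Control mouse 5 had 2 libraries, 5(1) and 5(2), whose counts were added, so 13 libraries gave 12 samples. The labels name a mouse for each sample and do not say whether the groups of a mouse were parts of 1 culture, so p-values measure the spread between these samples.

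Prostaglandins are short-lived lipid signals that act on the cell that makes them and on its neighbours. The cytosolic phospholipase encoded by Pla2g4a frees arachidonic acid from membranes, the cyclooxygenases of Ptgs1 and Ptgs2 turn it into an unstable intermediate, and terminal synthases shape that intermediate into prostaglandin E2 (Ptges, Ptges2, Ptges3) or prostacyclin (Ptgis). Ptger4 encodes a prostaglandin E2 receptor that raises cyclic AMP, and Hpgd and Ptgr1 encode the enzymes that inactivate prostaglandins stepwise. Fibroblasts are a well-known source of prostaglandin E2, and its release is counted among the secretions of senescent fibroblasts.

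The libraries held 22782536 to 31278750 expected counts (fractional read counts that RSEM assigns to genes). Levels are given in CPM, a gene's counts scaled to the size of its library with TMM factors, in the order of mice 4, 5 and 6, and the spread is the SD of 3 mice. A gene was called when its fold change in either direction was past 1 on the log2 scale and edgeR's quasi-likelihood test, with Benjamini-Hochberg adjustment over 15034 genes, gave p under 0.05. Cdkn1a and Cdkn2a, which encode cell cycle inhibitors, rose in senescent cells by 1.82 and 2.46 on the log2 scale, and the proliferation genes Mki67 and Top2a fell, with log2 fold changes of -4.57 and -4.56 (adjusted p 6.79e-05, 7.24e-05, 0.000865 and 4e-04, edgeR). The summed level of 10 fibroblast markers was 31800 to 53800 CPM over all samples, and that of 10 macrophage markers was 0.47 to 4.57 CPM in control cells and 2.72 to 16.7 in senescent cells. Single fibroblast markers moved in different directions. Dcn had 0.726 to 1.57 CPM in control cells, 12.7 to 22.9 in senescent cells and 37.5 to 168 at 100 µg/mL. Vim had 5400 to 5700, 6740 to 9060 and 4020 to 4620 CPM in those groups. The summed level of 6 smooth muscle markers was 6780 to 9180 CPM in control cells and 6380 to 10600 in senescent cells. It was 3700 to 5430 at 100 µg/mL and 4270 to 5320 at 300 µg/mL. The smooth muscle markers did not move as a set. Acta2, Tagln, Cnn1 and Smtn were lower in all samples at 100 µg/mL than in any senescent sample, while Myh11 and Lmod1 overlapped. The part of this sum in the results was not tested. In bulk RNA, fewer cells of a type and less RNA per cell cannot be told apart. The libraries also differed in a way that crossed the groups. Genes with 1 listed transcript sat low as a set in control mouse 6, control library 5(1), senescent mouse 5 and the 300 µg/mL sample of mouse 4, with median log2 deviations of -1.35, -1.09, -0.84 and -1.06 from their mean over all libraries, against -0.21 to 0.98 in the other 9. Within control mouse 5, such genes were higher in library 5(2) than in 5(1) by a median of 2.21 on the log2 scale over 1074 genes, against -0.22 over 6463 genes with under 50% of their exonic bases in 1 listed transcript. Of the members, Hpgd and Ptgr1 have 1 listed transcript, and Ptgs2 has 95.26% of its exonic bases in 1.

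Promoter sequences of the members for which the counts gave the clearest differences, or the widest spread, are printed so that the regulatory letters can be read beside the levels. They come from the RefSeq promoter table of GRCm38.p6, in which 9 of the 10 members were found (Ptgis was not), and were placed in GRCm39 by exact match. Each runs 5′ to 3′ on the gene's strand over the 250 bases before the start given there. For these 3 genes that start lies inside the gene span given below, so positions are not counted from the outer end of the gene. Capitals mark GC boxes (GGGCGG or its reverse complement) in the 3 promoters. In the short site after the Ptgs2 start, they mark an E-box (CACGTG) joined to the core of the cyclic AMP response element (TGACG, here on the opposite strand), which overlap.
Ptgs2 promoter, chr1:149975532-149975781, plus strand: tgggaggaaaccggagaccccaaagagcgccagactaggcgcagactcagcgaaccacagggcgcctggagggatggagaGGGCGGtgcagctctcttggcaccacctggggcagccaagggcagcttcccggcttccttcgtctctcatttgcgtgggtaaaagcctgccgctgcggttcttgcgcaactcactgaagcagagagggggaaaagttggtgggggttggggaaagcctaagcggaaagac
Ptgs2 site, chr1:149975789-149975812, plus strand: ccactaCGTCACGTGgagtccgct
Ptges promoter, chr2:30793310-30793559, minus strand: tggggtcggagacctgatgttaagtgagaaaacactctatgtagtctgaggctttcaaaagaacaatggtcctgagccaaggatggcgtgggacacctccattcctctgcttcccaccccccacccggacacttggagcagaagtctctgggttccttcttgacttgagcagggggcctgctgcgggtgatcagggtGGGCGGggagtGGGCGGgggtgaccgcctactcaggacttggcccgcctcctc
Ptges3 promoter, chr10:127894601-127894850, plus strand: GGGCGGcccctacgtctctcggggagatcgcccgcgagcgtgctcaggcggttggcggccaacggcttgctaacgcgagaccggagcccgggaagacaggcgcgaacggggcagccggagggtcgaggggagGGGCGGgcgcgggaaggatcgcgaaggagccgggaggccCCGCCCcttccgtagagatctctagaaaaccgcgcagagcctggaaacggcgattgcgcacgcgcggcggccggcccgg
Searched on both strands in windows of 300 bases, 250 before and 50 after the start, the E-box stood in 7.15% of 32851 promoters, the TGACG core in 20.8% and the GC box in 35.7%. The Ptgs2 site spans bases 14 to 22 after the start. The Ptges promoter held a pair of GC boxes, at -53 to -48 and -42 to -37, and no TGACG or CACGTG in its window. The Ptges3 window held 4 GC boxes, of which 3 lie before the start, and a TGACG core at 12 to 16 after it. These matches describe letters only.

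The comparison of senescent with control cells asks how the prostaglandin genes stood 5 days after DNA damage. Of the 9 members that passed the filter on low counts, 1 was called: Ptges, the inducible prostaglandin E synthase, rose 2.85-fold. The other 8 did not pass. The background of that comparison was 8.42% of 15034 genes called, so 1 of 9 is close to it. The fitted log2 fold change was above 0 for 5 of 9 members and below 0 for 4, and its median was 0.23 against 0.07 over all genes tested. Senescent and control mice stood apart, without overlap, in 2 of 9 members, Ptges and Ptges3, against 27.1% of all genes tested.

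The comparisons of each Fucoidan-FV dose with untreated senescent cells ask whether the treatment moved these genes within 12 h. No member was called at 100 µg/mL, where 2.69% of all genes were, and none at 300 µg/mL, where 1.64% were. At an unadjusted p under 0.05, edgeR gave 3 members at the lower dose (Ptgs1, Ptges3 and Ptger4, all with a negative fold change) and 0 at the higher, where 19.8% and 15.3% of all genes did so. DESeq2 called 0 at both, where it called 3.06% and 2.36% of all genes. The fitted values were below those of senescent cells for 7 of 9 members at 100 µg/mL and 9 of 9 at 300 µg/mL, with medians of -0.32 and -0.43 against -0.02 and 0 over all genes. Both comparisons share the senescent samples, so these signs are not independent of each other. The signs also depended on the scale. In the authors' TPM, scaled for transcript length and depth, means of Ptgs2, Ptges2, Pla2g4a and Ptgr1 were above senescent cells at 100 µg/mL. At 300 µg/mL those of Ptgs1, Ptges, Ptges2 and Pla2g4a were above (Pla2g4a 101 against 83.3). The other tested members were below at each dose. Between the doses, 0 of 9 members were called against a background of 0.00665%, and edgeR gave 0 at an unadjusted p under 0.05 (0.625% of all genes), as did DESeq2 at the thresholds of a call (0.00367%).

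**Figure D1:**
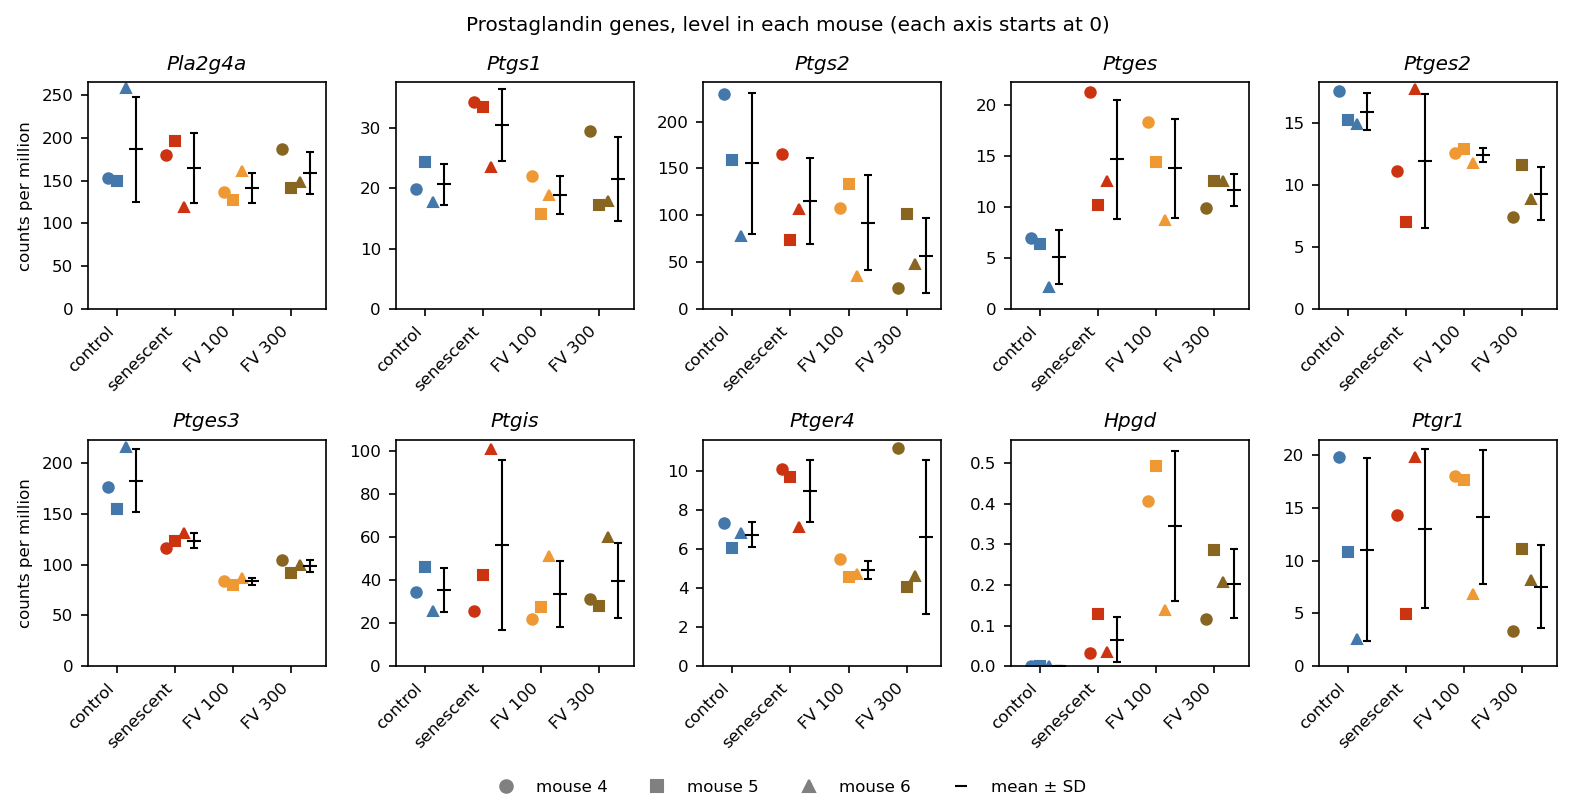
Level of each of the 10 genes in CPM (vertical axis, from 0) in control cells, senescent cells and senescent cells given Fucoidan-FV at 100 or 300 µg/mL, with 1 symbol per mouse and the mean ± SD (n = 3) beside them. Ptges sits between 2.11 and 6.93 in control cells and at 8.72 or more in all 9 samples of the other groups, Ptges3 is lower in all of those 9 than in any control sample, and Ptgs2 spreads widely within every group.

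Against control cells, 2 of 9 members were called at 100 µg/mL, Ptges higher and Ptges3 lower, where 19.6% of all genes were called. DESeq2, which also fitted Hpgd, called 3 (the third being Hpgd, higher), where it called 13.6% of all genes. At 300 µg/mL, 0 of 9 were called by edgeR where 18% of all genes were. At that dose, edgeR gave 4 members at an unadjusted p under 0.05, as it did 36.3% of all genes, and DESeq2 called 2 (Ptges and Hpgd, both higher) and 12.3% of all genes. These comparisons set both senescence and treatment against untreated cells, and share their control samples with the comparison of senescent with control cells. The plot of fitted fold changes gives all tested members side by side.

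**Figure D2:**
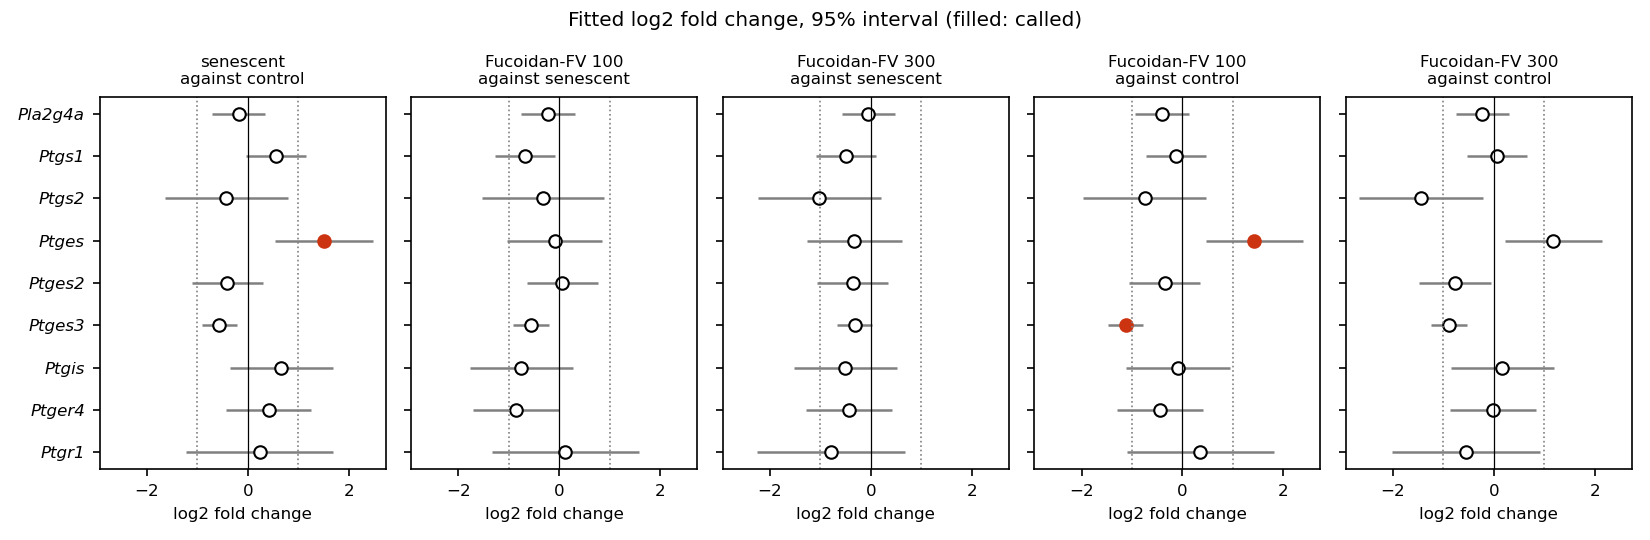
Fitted log2 fold change (horizontal axis) of the 9 tested members in 5 comparisons, with 95% intervals as lines, dotted lines at 1 and -1, and filled points for calls. Ptges is filled in senescent against control cells (1.51) and at 100 µg/mL against control cells, Ptges3 at 100 µg/mL against control cells (-1.13), and no point is filled against senescent cells.

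Compared per length, in the authors' TPM, which scale counts for both transcript length and depth, Ptges3 and Pla2g4a were the most abundant members in every group. In control cells the order of mean TPM was Ptges3 (151 ± 27.9), Pla2g4a (88.4 ± 27.8), Ptgs2 (48.6 ± 24.3), Ptgis (26.9), Ptges2 (21.2), Ptgs1 (11.1 ± 1.64), Ptges (8.58 ± 2.56), Ptgr1 (7.04), Ptger4 (2.73 ± 0.36) and Hpgd, which was at 0. Of neighbours in that order, Ptges3 and Pla2g4a did not overlap between mice, nor did Ptges2 and Ptgs1, nor Ptger4 and Hpgd. The 6 other pairs of neighbours overlapped, so their order is within the spread. In senescent cells Ptges stood at 23.0 ± 10.5 TPM, above the means of Ptgs1 (16.6 ± 5.2) and Ptges2 (15.6), though it overlapped both. Ptges (24 ± 1.54) and Ptgs2 (24.5 ± 18.0) had nearly the same mean at 300 µg/mL.

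Pla2g4a (chr1:149705369-149837053, minus strand), which supplies the arachidonic acid, was high throughout and differed little between groups. Its levels were 153, 150 and 258 CPM in control cells, 180, 196 and 119 in senescent cells, 137, 127 and 161 at 100 µg/mL and 187, 142 and 148 at 300 µg/mL. All 4 groups overlapped. The log2 fold change was -0.18 in senescent against control cells (95% interval -0.71 to 0.35, adjusted p = 0.721, edgeR), -0.22 at 100 µg/mL against senescent cells (-0.75 to 0.31, adjusted p = 0.68) and -0.05 at 300 µg/mL (-0.58 to 0.48, adjusted p = 0.957). These intervals leave room for changes smaller than the fold limit of a call.

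Ptgs1 (chr2:36120438-36142287, plus strand) encodes the cyclooxygenase that most tissues carry constantly. Its levels were 19.9, 24.4 and 17.7 CPM in control cells, 34.4, 33.5 and 23.6 in senescent cells, 22.0, 15.8 and 18.9 at 100 µg/mL and 29.6, 17.3 and 17.9 at 300 µg/mL. Every sample at 100 µg/mL lay below every untreated senescent sample, and the log2 fold change of -0.69 (SE 0.28) had an adjusted p of 0.183 (edgeR). It was 0.56 in senescent against control cells (SE 0.28, adjusted p = 0.226) and -0.50 at 300 µg/mL against senescent cells (SE 0.28, adjusted p = 0.431). Per length the senescent and 100 µg/mL means were 16.6 and 16.4 TPM, so the lower level of treated cells was seen in counts and not in TPM.

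Ptgs2 (chr1:149975194-149983978, plus strand) encodes the inducible cyclooxygenase, the target of common anti-inflammatory drugs. It had 229, 159 and 77.8 CPM in control cells, 165, 74.1 and 107 in senescent cells, 108, 133 and 35.1 at 100 µg/mL and 21.9, 101 and 47.9 at 300 µg/mL. The group means were, in that order, 155 ± 75.5, 115 ± 46.3, 92.2 ± 51.1 and 56.8 ± 40.2 CPM (SD, n = 3), each below the one before, but mice of all groups overlapped and no comparison was called. That order was not kept in TPM, with means of 48.6, 39.6, 45.3 and 24.5, where the 100 µg/mL mean was above the senescent one. The log2 fold change was -0.43 in senescent against control cells (95% interval -1.64 to 0.79, adjusted p = 0.712, edgeR). Against senescent cells it was -0.32 at 100 µg/mL (-1.54 to 0.89, adjusted p = 0.81) and -1.02 at 300 µg/mL (-2.24 to 0.20, adjusted p = 0.433). The senescent cells thus did not carry detectably more Ptgs2 RNA than control cells, and the spread leaves fold changes past the limit of a call within the intervals. Against control cells it was -1.45 at 300 µg/mL (-2.68 to -0.21, adjusted p = 0.0839). Leaving out 1 mouse moved that value between -2.15 and -0.97, with a call only without mouse 5 at 300 µg/mL (adjusted p = 0.0293). The same fits ran from -0.79 (without senescent mouse 4) to -0.03 (without control mouse 4) in senescent against control cells, and from -1.72 (without mouse 5 at 300 µg/mL) to -0.56 (without senescent mouse 4) at 300 µg/mL against senescent cells, with no call. The antisense gene Ptgs2os lies opposite 9.29% of its exonic bases and had at most 59 counts in a library.

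Ptgs2 moved with the library difference described above. The pair of libraries of control mouse 5 gave 59.7 CPM in 5(1) and 270 in 5(2), and the 4 libraries low in genes with 1 listed transcript had 21.8 to 77.6 CPM (median 66.8) against 35.0 to 270 (median 108) in the other 9. When each gene and library was given an offset for the share of sequence in 1 transcript, length and GC content, the fold changes against control cells were -1.30 at 100 µg/mL (adjusted p = 0.00678) and -1.51 at 300 µg/mL (adjusted p = 0.00311), both called by edgeR. Against senescent cells, the same offsets with the mouse as a block gave -1.20 at 300 µg/mL (adjusted p = 0.0401) and offsets alone gave -1.15 (adjusted p = 0.0626). The offsets were fitted over the same libraries, and how much of the spread of Ptgs2 between mice they account for was not tested.

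**Figure D3:**
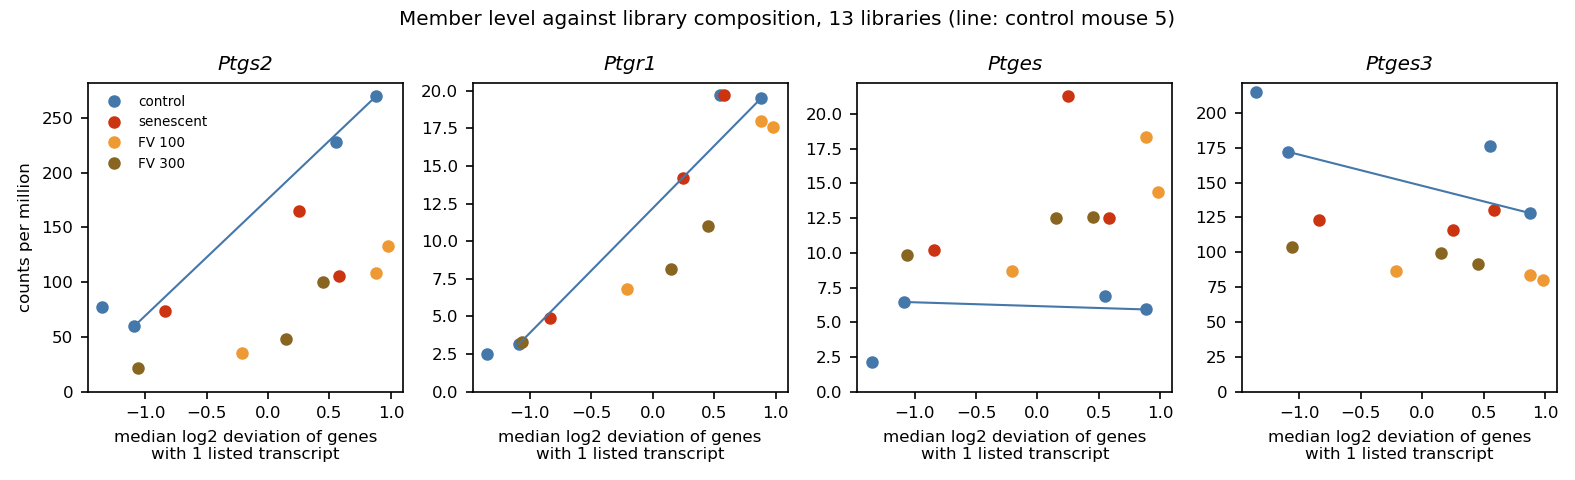
Level of Ptgs2, Ptgr1, Ptges and Ptges3 in each of the 13 libraries (CPM, from 0) against the library's median log2 deviation of genes with 1 listed transcript, coloured by group, with a line joining the 2 libraries of control mouse 5. That line runs from 59.7 to 270 for Ptgs2 and from 3.16 to 19.5 for Ptgr1, and from 6.46 to 5.92 for Ptges.

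Ptges (chr2:30779483-30820196, minus strand) encodes the microsomal prostaglandin E synthase that works together with the inducible cyclooxygenase. It had 6.93, 6.36 and 2.11 CPM in control cells and 21.3, 10.2 and 12.6 in senescent cells. All 3 senescent samples lay above all 3 control samples, and the log2 fold change was 1.51 (SE 0.45, 95% interval 0.55 to 2.48, adjusted p = 0.0431, edgeR). The call is near its limit. It was lost with only these 2 groups in the fit (adjusted p = 0.14), without the 4 low libraries (1.40, adjusted p = 0.0687) and without each mouse in turn except senescent mouse 5. Without control mouse 4, 5 or 6 the adjusted p was 0.0734, 0.0879 or 0.112, and without senescent mouse 4 or 6 it was 0.195 or 0.0517. The fold change stayed between 1.13 and 1.79 in these fits. Unlike Ptgs2, the libraries of control mouse 5 were close in CPM, at 6.46 in 5(1) and 5.92 in 5(2), but had 10.8 and 5.94 TPM. The 4 low libraries had 2.11 to 10.2 CPM (median 8.16) against 5.92 to 21.3 (median 12.5) in the other 9. How much the library difference adds to the Ptges values was not tested.

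Under Fucoidan-FV, Ptges stayed near its senescent level, with 18.4, 14.4 and 8.72 CPM at 100 µg/mL and 9.89, 12.6 and 12.6 at 300 µg/mL. The treated and untreated senescent samples overlapped at both doses. The log2 fold change against senescent cells was -0.09 at 100 µg/mL (95% interval -1.03 to 0.85) and -0.33 at 300 µg/mL (-1.27 to 0.61), with adjusted p 0.94 and 0.797 (edgeR). The lower ends of both intervals reach past the fold limit of a call. Against control cells, Ptges rose 2.69-fold at 100 µg/mL (log2 1.43, SE 0.45, adjusted p = 0.0306). That call was lost with only the 2 groups in the fit (adjusted p = 0.0547), without control mouse 6 (0.056) and without mouse 4 or 5 at 100 µg/mL (0.127 and 0.0792). The value against control cells at 300 µg/mL was 1.18 (SE 0.44, adjusted p = 0.0696), every treated sample was above every control sample, and with the mouse as a block it was called (1.33, adjusted p = 0.0416). The genes whose log2 CPM over the 12 samples was most like that of Ptges were Slitrk6, which encodes a transmembrane protein with leucine-rich repeats, and Hspb7, which encodes a small heat shock protein, with Pearson r of 0.966 and 0.954. These correlations are descriptions over samples that share 4 group levels.

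**Figure D4:**
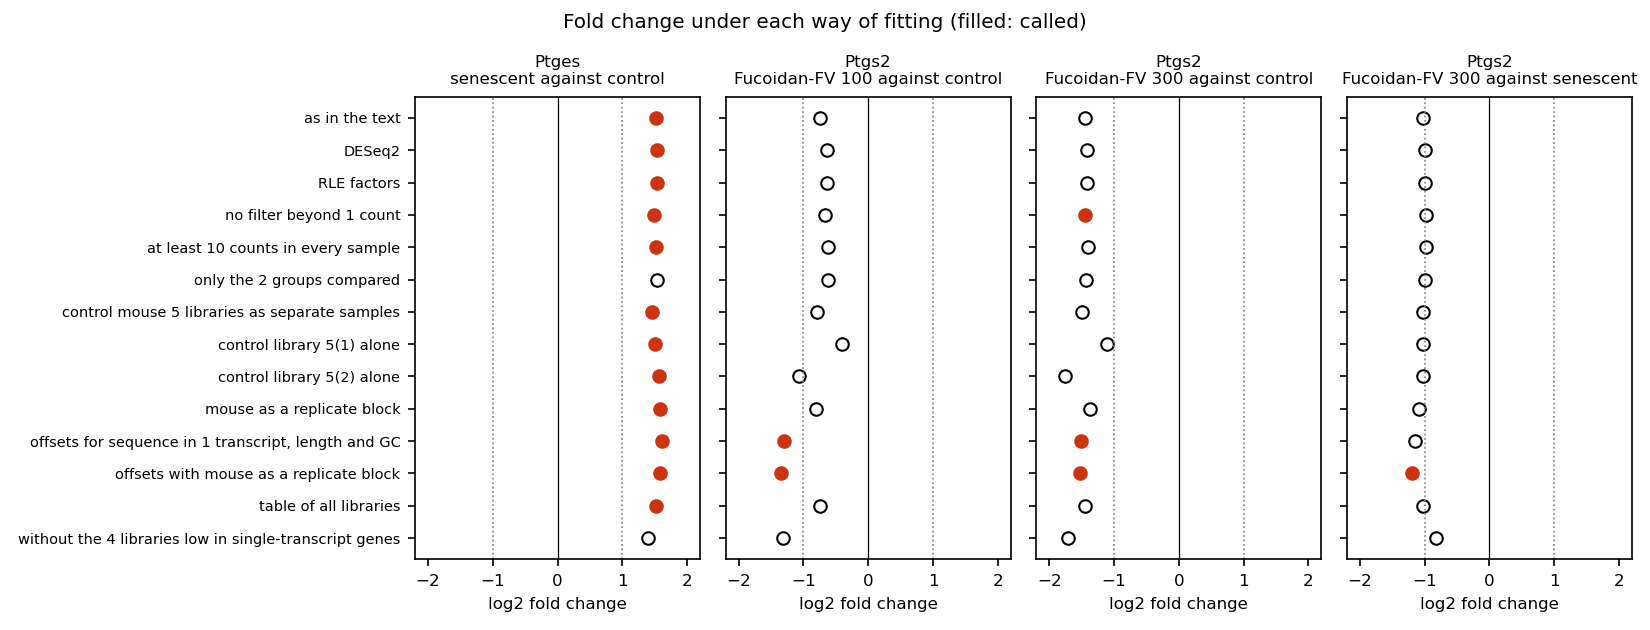
Log2 fold change (horizontal axis) of Ptges in senescent against control cells and of Ptgs2 in 3 comparisons under 14 ways of fitting (vertical axis), filled where called. Ptges is filled in all but the fit of only the 2 groups and the fit without the 4 low libraries, while Ptgs2 at 100 µg/mL against control cells is filled only in the fits with offsets.

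Ptges2 (chr2:32285659-32295786, plus strand) encodes another, membrane-associated prostaglandin E synthase. Its levels were 17.6, 15.2 and 14.9 CPM in control cells, 11.1, 7.03 and 17.7 in senescent cells, 12.6, 12.9 and 11.8 at 100 µg/mL and 7.44, 11.6 and 8.88 at 300 µg/mL. Every treated sample lay below every control sample in CPM at both doses. In TPM the samples of both doses overlapped those of control cells. The mean was 21.2 TPM in control cells, 21.7 at 100 µg/mL and 16.3 at 300 µg/mL, where the highest samples had 22.7, 25.1 and 22.2. No comparison was called, and the log2 fold change against control cells was -0.35 at 100 µg/mL and -0.77 at 300 µg/mL (adjusted p 0.46 and 0.107, edgeR). Against senescent cells it was 0.06 and -0.36 (adjusted p 0.947 and 0.682). Ptges2 shares runs of 51 bases with 522 genes, among them Pip5k1a and Mast3. These had up to 4918 and 1180 counts in a library, against 163 to 521 for Ptges2. The part of shared reads in its levels was not tested.

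Ptges3 (chr10:127894816-127913141, plus strand) encodes the cytosolic prostaglandin E synthase, which is also the co-chaperone p23 of the heat shock protein HSP90. It had 176, 155 and 216 CPM in control cells, 116, 123 and 131 in senescent cells, 83.5, 80.3 and 87.0 at 100 µg/mL and 104, 92.1 and 99.8 at 300 µg/mL. The mice of every pair of groups were apart, in the order control, senescent, 300 µg/mL and 100 µg/mL. In senescent against control cells the log2 fold change was -0.56 (SE 0.16, adjusted p = 0.0375, edgeR), which is inside the fold limit of a call. That value was -0.30 without the 4 low libraries (adjusted p = 0.412), -0.49 with control library 5(2) alone (0.131), -0.58 with only the 2 groups in the fit (0.166) and -0.56 with the mouse as a block (0.0518), and without control mouse 4 or 6 or senescent mouse 4 or 5 its adjusted p was 0.0559 to 0.0843. At 100 µg/mL Ptges3 fell below control cells by 1.13 on the log2 scale (SE 0.16, adjusted p = 0.000288), the second member called there. The value at 300 µg/mL was -0.89 (SE 0.16, adjusted p = 0.00155).

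The size of the Ptges3 difference depended on the fit. At 100 µg/mL against control cells it was -0.90 with the offsets (adjusted p = 9.8e-05), -0.77 without the 4 low libraries (adjusted p = 0.0149) and -0.82 without control mouse 6 (adjusted p = 0.00178), all inside the fold limit. Against senescent cells it was -0.56 at 100 µg/mL and -0.32 at 300 µg/mL (adjusted p 0.0675 and 0.367). Per length the groups stood at 151 ± 27.9, 106 ± 10.4, 96.8 ± 6.74 and 104 ± 3.49 TPM, in which the treated samples overlapped the senescent ones and the control samples lay above all others. That holds for control mouse 5 only with its libraries combined, since library 5(2) alone had 110 TPM and 128 CPM, inside the senescent range of 95.4 to 116 TPM and 116 to 131 CPM. Ptges3 shares sequence with Ptges3-ps and Gm11893, which had at most 28 and 1 counts in a library, and with Gm68507.

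Ptgis (chr2:167033725-167083018, minus strand) encodes prostacyclin synthase, known from vessel walls. It had 34.6, 46.2 and 25.6 CPM in control cells, 25.6, 42.5 and 101 in senescent cells, 21.8, 27.7 and 51.1 at 100 µg/mL and 31.1, 28.2 and 60.0 at 300 µg/mL. Mouse 6 was lowest among the control samples and highest in each of the other groups. The log2 fold changes of 0.67 in senescent against control cells and -0.75 and -0.50 at the doses against senescent cells did not pass (adjusted p 0.432, 0.419 and 0.694, edgeR). Leaving out 1 mouse at a time moved them between -0.06 and 1, between -1.19 and 0.10, and between -0.93 and 0.27.

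Ptger4 (chr15:5236142-5273673, minus strand) encodes the EP4 receptor and was expressed at a low level. It had 7.35, 6.05 and 6.86 CPM in control cells, 10.1, 9.70 and 7.17 in senescent cells, 5.48, 4.58 and 4.74 at 100 µg/mL and 11.2, 4.09 and 4.65 at 300 µg/mL. Every sample at 100 µg/mL lay below every senescent and every control sample in CPM, while mouse 4 at 300 µg/mL was the highest of all 12. In TPM the 100 µg/mL samples, at 2.35 to 3.3, overlapped both control cells (2.38 to 3.1) and senescent cells (2.6 to 4.82). The log2 fold change at 100 µg/mL was -0.87 against senescent cells (SE 0.40, adjusted p = 0.245, edgeR) and -0.45 against control cells (adjusted p = 0.43). Ttc33 and Gm15937 lie opposite 17.3% of its exonic bases. Ttc33 had up to 1095 counts in a library against 112 to 317 for Ptger4, and whether the counting used strand is not given in the sources used here, so reads of that stretch cannot be assigned with certainty.

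Hpgd (chr8:56747543-56774082, plus strand) encodes the dehydrogenase that begins the breakdown of prostaglandins, and it was near the limit of detection. Control libraries held 0 counts each, senescent libraries 1, 3 and 1, those at 100 µg/mL 13, 13 and 4, and those at 300 µg/mL 3, 8 and 5. Over each group this was 0 of 103096091 counts, 5 of 87704709, 30 of 79663423 and 16 of 75992744. A count of 0 over the control group allows up to 0.0291 CPM, taking 3 counts over the group as the floor. The pooled level of Hpgd was 1.96 times that floor in senescent cells, 13 times at 100 µg/mL and 7.25 times at 300 µg/mL. These ratios take no account of counting error in the 5, 30 and 16 counts, so they are not lower limits. It failed the filter on low counts and was not tested with the other members. DESeq2, which kept it, gave adjusted p 0.00271 at 100 µg/mL and 0.0137 at 300 µg/mL against control cells, and edgeR without a filter gave 0.027 and 0.0617. In senescent against control cells neither passed (adjusted p 0.205 with DESeq2 and 0.317 with edgeR without a filter).

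Against untreated senescent cells, no test over mice passed. edgeR without a filter gave adjusted p 0.564 at 100 µg/mL and 0.738 at 300 µg/mL (unadjusted p 0.14 and 0.319), and DESeq2 gave unadjusted p 0.058 and 0.212 with no adjusted p. The pooled counts of Hpgd had a ratio of 6.61 at 100 µg/mL (95% exact interval 2.54 to 21.8) and 3.69 at 300 µg/mL (1.29 to 12.9), but these intervals and the floor cover counting error only, not the spread between mice. Every sample at 100 µg/mL had a higher CPM than every senescent sample (0.407, 0.492 and 0.138 against 0.032, 0.129 and 0.034), while mouse 4 at 300 µg/mL, at 0.116, lay below senescent mouse 5. Genes with 1 listed transcript, as Hpgd has, deviated by 0.88, 0.98 and -0.21 in these 100 µg/mL libraries. Hpgd had a median of 0.058 CPM in the 4 low libraries and 0.138 in the other 9. The part of this library difference in the Hpgd values was not tested. At 5 to 30 counts a group, the level stays below 1 CPM in every sample, far under that of the synthases.

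Ptgr1 (chr4:58965203-58987131, minus strand) encodes a reductase that takes the breakdown one step further and also acts on leukotriene B4. It had 19.8, 10.8 and 2.54 CPM in control cells, 14.3, 4.91 and 19.8 in senescent cells, 18.0, 17.6 and 6.82 at 100 µg/mL and 3.33, 11.1 and 8.17 at 300 µg/mL. Within each group the highest sample was several times the lowest, all groups overlapped, and no comparison was called. The log2 fold change was 0.23 in senescent against control cells, 0.12 at 100 µg/mL and -0.79 at 300 µg/mL against senescent cells (adjusted p 0.886, 0.946 and 0.661, edgeR). The levels followed the library difference: the 4 low libraries had 2.53 to 4.9 CPM (median 3.24) and the other 9 had 6.8 to 19.7 (median 17.6), with no overlap. Its part in the values of each group was not tested.

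The rest of the eicosanoid pathway (other phospholipases, synthases, receptors, transporters, breakdown enzymes and the lipoxygenase branch) was read from the same fit. Of 53 listed genes, 36 passed the filter. In senescent against control cells, 4 of 36 were called, all higher (11.1%, against 8.42% of all genes), and the median log2 fold change was 0.77 against 0.07 over all genes. At 100 µg/mL against senescent cells 1 rose and 2 fell (8.33%, against 2.69% of all genes), and at 300 µg/mL 1 rose and 1 fell (5.56%, against 1.64%).

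The largest fold changes against senescent cells among those called were of Ptgfr, which encodes the prostaglandin F receptor. It had 1.57, 2.75 and 1.32 CPM in control cells, 3.45, 4.10 and 5.47 in senescent cells, 33.6, 41.9 and 56.4 at 100 µg/mL and 25.9, 38.0 and 38.4 at 300 µg/mL. Every treated sample was several times above every untreated one. Ptgfr rose 10.1-fold at 100 µg/mL (log2 3.34, SE 0.35, adjusted p = 0.000441, edgeR) and 7.85-fold at 300 µg/mL (log2 2.97, SE 0.34, adjusted p = 0.00109) against senescent cells, and both calls held without each mouse in turn, at 3.12 to 3.67 and 2.88 to 3.23. Its rise of 1.18 in senescent against control cells (adjusted p = 0.0362) was 0.73 without the 4 low libraries (adjusted p = 0.32) and 0.95 with control library 5(2) alone (0.158), and was not called in either. It was also lost with only the 2 groups in the fit (0.273), when 5(1) and 5(2) entered separately (0.0744), with offsets (0.058, or 0.0659 with the block too), and without control mouse 4 or 6 or senescent mouse 5 or 6 (0.0509 to 0.107). The doses did not differ detectably from each other (-0.37, adjusted p = 0.97).

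Mgll and Slco2a1 were lower in treated than in untreated senescent cells. Mgll, which encodes a monoacylglycerol lipase that frees arachidonic acid from an endocannabinoid, had 35.7, 66.0 and 72.1 CPM in control cells, 88.1, 156 and 173 in senescent cells, 28.2, 39.5 and 54.3 at 100 µg/mL and 43.9, 49.8 and 52.6 at 300 µg/mL. It rose in senescent cells by 1.26 on the log2 scale (SE 0.32, adjusted p = 0.0207, edgeR), and fell at both doses, with log2 fold changes of -1.78 and -1.51 against senescent cells (adjusted p 0.01 and 0.0295). The call at 300 µg/mL was lost in 5 of 6 fits without a mouse (adjusted p 0.0759 to 0.133), without the 4 low libraries (0.121) and with only the 2 groups in the fit (0.0505). The call at 100 µg/mL was lost without mouse 4 or 5 at that dose (0.0578 and 0.0537). The call of the rise in senescent cells was lost without control mouse 4 (0.99, inside the fold limit) or senescent mouse 5 (adjusted p = 0.0509), and with only the 2 groups in the fit (0.0743). Slco2a1, which encodes the prostaglandin transporter that carries prostaglandins into cells for breakdown, had 66.9, 51.3 and 44.1 CPM in control cells, 40.8, 35.8 and 23.4 in senescent cells, 15.4, 15.1 and 5.26 at 100 µg/mL and 12.7, 12.6 and 7.38 at 300 µg/mL. All treated samples were below all untreated ones. It fell by 1.49 at 100 µg/mL (SE 0.39, adjusted p = 0.0489), a call lost in all 6 fits without a mouse (adjusted p 0.0976 to 0.206), without the 4 low libraries (0.147), with RLE factors (0.0755), with at least 10 counts in every sample (0.0696), with only the 2 groups (0.19) and with library 5(1) or 5(2) alone (0.053 and 0.0637). The value at the higher dose was -1.61 (adjusted p = 0.0531). It was called with the mouse as a block (0.0168), with offsets (0.013), by DESeq2 (0.00393), with no filter (0.000489) and with 5(1) and 5(2) entered separately (0.0493), but had adjusted p 0.18 without the 4 low libraries and 0.0848 to 0.232 in the 6 fits without a mouse. Against control cells it fell at both doses, with -2.19 and -2.31 (adjusted p 0.00133 and 0.001).

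**Figure D5:**
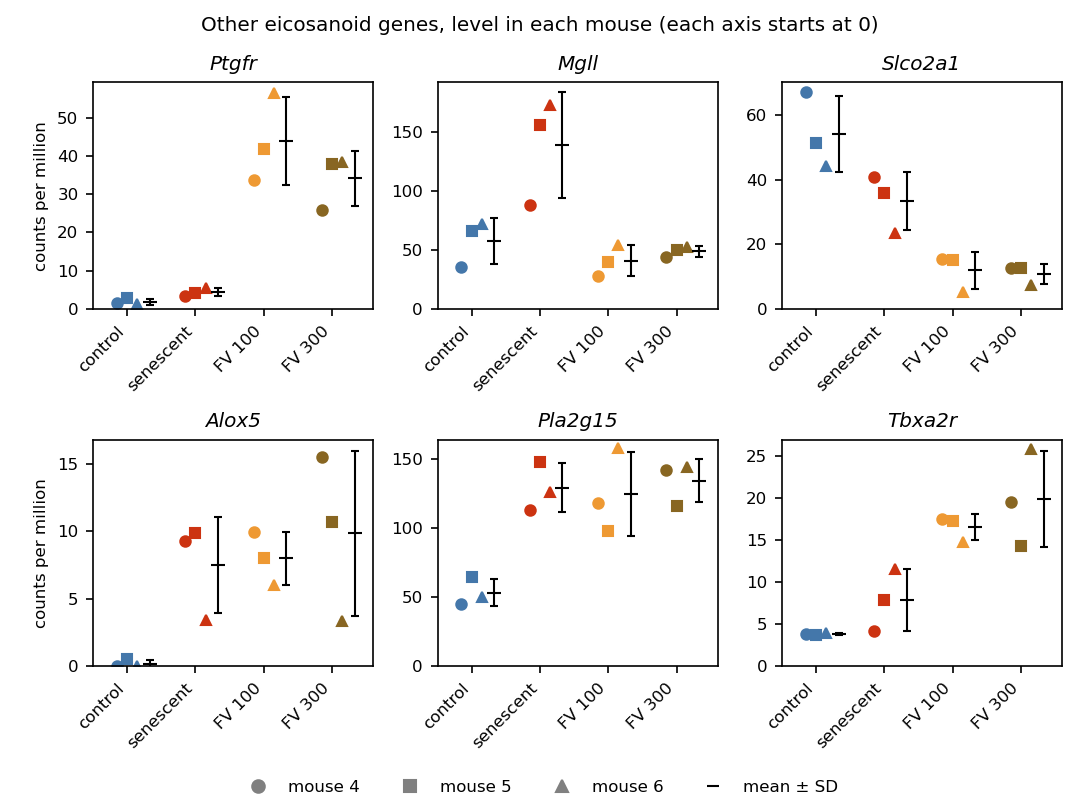
Level of 6 other eicosanoid genes (CPM, from 0) in the 4 groups, with 1 symbol per mouse and the mean ± SD (n = 3). Ptgfr is at 25.9 or more in treated cells and 5.47 or less in untreated ones, Slco2a1 is lower in all treated samples than in any untreated one, and Mgll is higher in all untreated senescent samples than in any other.

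Pla2g15 and Alox5 rose in senescent cells and were not called at either dose against senescent cells. Pla2g15, a lysosomal phospholipase, rose by 1.28 on the log2 scale (SE 0.22, adjusted p = 0.00191, edgeR), from 45.2 to 64.3 CPM in control cells to 113 to 148 in senescent cells, and its value at 100 µg/mL against senescent cells was -0.05 (adjusted p = 0.928). Alox5, the lipoxygenase that opens leukotriene synthesis, had 0, 0.53 and 0 CPM in control cells and 9.27, 9.83 and 3.40 in senescent cells (adjusted p = 0.00508). Its fitted log2 fold change of 5.08 depends on the prior count, since control mice 4 and 6 had none: it was 10.59 without control mouse 5 and 4.61 to 5.43 without any other mouse, and called in each. Its mean was 7.99 CPM at 100 µg/mL and 9.85 at 300 µg/mL. Leukocytes are the usual source of Alox5. The summed level of the macrophage markers was 0.47 to 4.57 CPM in control cells and 2.72 to 16.7 in senescent cells, which overlap. It was 3.66 to 12.9 at 100 µg/mL and 3.76 to 8.89 at 300 µg/mL, and 3 of the 10 markers were under 1 CPM in all samples. The part of these markers in the Alox5 result was not tested.

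Among other receptors, Tbxa2r, the thromboxane receptor, had 3.82, 3.67 and 3.90 CPM in control cells, 4.22, 7.89 and 11.6 in senescent cells, 17.5, 17.3 and 14.8 at 100 µg/mL and 19.5, 14.3 and 25.8 at 300 µg/mL. It rose against control cells at both doses, by 2.12 and 2.38 on the log2 scale (adjusted p 0.000973 and 0.000498, edgeR), while its values of 1.07 and 1.33 against senescent cells had adjusted p 0.111 and 0.0813. Ptger1, a prostaglandin E2 receptor that raises calcium, had group means of 12.7, 22.4, 21.6 and 26.6 CPM, with 0.82 in senescent against control cells (adjusted p = 0.0475, inside the fold limit). Ptgfrn, whose product binds the prostaglandin F receptor, had means of 25.7, 23.1, 52.3 and 36.9 CPM and 1.18 at 100 µg/mL against senescent cells (adjusted p = 0.0936). Ltb4r2, a leukotriene B4 receptor, had means of 0.576, 2.57, 2.91 and 2.27 CPM, with no call in senescent against control cells (2.10, adjusted p = 0.17, edgeR). Ptger2, Ptgdr and Ptgdr2 did not pass the filter, and the prostacyclin receptor gene Ptgir had means of at most 0.89 CPM.

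Of 7 other synthases that passed the filter, edgeR called 0 in senescent against control cells and 0 at either dose against senescent cells, with 3, 1 and 0 at an unadjusted p under 0.05, beside 25.4%, 19.8% and 15.3% of all genes. Cbr1, a carbonyl reductase that acts on prostaglandins, had means of 22.9, 39.1, 33.1 and 37.3 CPM, with 0.77 in senescent against control cells (adjusted p = 0.0333, edgeR), inside the fold limit. The aldo-keto reductase genes Akr1b3, Akr1b8 and Akr1b10, of which Akr1b3 encodes a prostaglandin F synthase, had control means of 60.8, 22.0 and 15.5 CPM and senescent means of 63.0, 31.2 and 26.5. Prxl2b, a prostamide and prostaglandin F synthase, had means of 4.61, 8.82, 6.46 and 5.92 CPM (0.94 in senescent against control cells, adjusted p = 0.155). Tbxas1, thromboxane synthase, had means of 1.86, 0.769, 0.167 and 0.568 CPM (-1.26, adjusted p = 0.582). The prostaglandin D synthase genes Ptgds and Hpgds did not pass the filter.

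Because EP4 acts through cyclic AMP, 12 genes known to respond to it were read as well, of which 11 passed the filter. In senescent against control cells edgeR called 0 of them (8.42% of all genes), with 3 at an unadjusted p under 0.05 (25.4% of all genes), and 1, Dusp1, was called at each dose against senescent cells (2.69% and 1.64% of all genes). At an unadjusted p under 0.05, edgeR gave 5 at 100 µg/mL and 3 at 300 µg/mL against senescent cells (19.8% and 15.3% of all genes). Nr4a1 and Dusp1 were lower at both doses, while Pde4b, Pde4d and Pde3b were higher at 100 µg/mL and Per1 at 300 µg/mL. Dusp1, a phosphatase that switches off stress kinases, had 116, 157 and 136 CPM in control cells, 193, 270 and 230 in senescent cells, 85.3, 107 and 85.6 at 100 µg/mL and 112, 112 and 91.9 at 300 µg/mL. All senescent samples lay above all others. It fell by 1.32 at 100 µg/mL (SE 0.19, adjusted p = 0.00393) and by 1.14 at 300 µg/mL (SE 0.19, adjusted p = 0.0101), the latter lost without the 4 low libraries (adjusted p = 0.0764), senescent mouse 5 (-0.96) or mouse 6 at 300 µg/mL (adjusted p = 0.0728). In the other direction, Pde4b, a cyclic AMP phosphodiesterase, had means of 8.29, 10.2, 21.3 and 18.9 CPM and rose at 100 µg/mL against control cells by 1.36 (adjusted p = 0.0417). The median log2 fold change of the 11 was 0.24 in senescent against control cells, and 0.23 and 0.58 at the doses against senescent cells, beside 0.07, -0.02 and 0 over all genes.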

How the data were processed

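Expected counts and TPM (transcripts scaled for length and depth) per gene were deposited by the authors for 13 libraries, made from total RNA with a stranded kit and paired reads of 150 bases. The submitters' processing notes name Trimmomatic, FastQC 0.12.1, STAR 2.7.11b, RSEM 1.3.1 and GRCm39; whether strand was used in counting is not given in the sources used here. RSEM divides reads shared between genes, so its counts can be fractional. No value of the authors' own comparisons was used, and 0 columns stood outside the labelled samples.

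Counts were rounded, the libraries of control mouse 5 summed, and genes filtered with filterByExpr (minimum count 10, total 15), which kept 15034 of 57010. Libraries held 22782536 to 31278750 expected counts, so that 3 counts over the control group came to 0.0291 CPM. With TMM factors, edgeR 4.0.16 (limma 3.58.1, R 4.3.3) fitted 4 groups together by quasi-likelihood, and p-values were adjusted (Benjamini-Hochberg) over all genes tested; a call needed p under 0.05 after adjustment and a change past 1 on the log2 scale in either direction. These are the study's thresholds, with DESeq2 1.42.0 as an alternative. The code was tested on simulated data. TPM served to order levels between genes, and also to set groups or libraries of the same member beside each other.

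The members and lists were chosen with earlier results of these data known. All 10 members are described. Of 53 other pathway genes and 12 cyclic AMP response genes, those called in senescent against control cells or at a dose against senescent cells are given with values, as are receptors and synthases with a group mean of at least 1 CPM. The 2 most correlated genes are named for each member called in those same comparisons, which is Ptges alone. Marker lists covered fibroblasts, macrophages, endothelium, smooth and skeletal muscle, epithelium and mast cells. Summed levels over all samples reached 14.6 CPM for endothelium, 360 for skeletal muscle, 2.04 for epithelium and 1.32 for mast cells; Cldn5, Mcpt4 and Fcer1a were at 0.

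The labels pair groups by mouse. Whether same-numbered samples deviated together was checked over 18 pairs: correlations ran from -0.17 to 0.336, with a median of 0.004. The mouse as a block was an alternative, beside other tools, factors, filters, groups in the fit, treatments of control mouse 5, offsets (4 spline degrees of freedom), the authors' joint table and leaving out each mouse. The fit without the 4 libraries low in genes with 1 listed transcript was chosen after seeing the data, as were the fits of Ptges, Ptges3, Ptgs2 and pathway genes under all alternatives.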

Additional observations from a re-analysis of the deposited data

How the results depend on the processing

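Counts of called members changed in these fits. Calls over all genes changed too and are given beside them, except by adjusted p alone. In senescent against control cells the count of 1 became 0 with only the 2 groups in the fit, 0 without the 4 low libraries, and 2 by adjusted p alone, where Ptges3 joined. Calls over all genes went from 1266 of 15034 to 699 of 13710 with the 2 groups and 1027 of 15352 without the libraries. At 300 µg/mL against senescent cells the count of 0 became 1 (Ptgs2) with offsets and the mouse as a replicate block. Over all genes, 246 of 15034 became 375 of 15034. At 100 µg/mL against control cells the count of 2 became 1 with only the 2 groups and 3 with DESeq2, where Hpgd joined. Over all genes, 2954 of 15034 became 2848 of 14007 and 3710 of 27238. At 300 µg/mL against control cells the count of 0 became 2 with DESeq2, 2 with no filter, 2 with offsets, 2 with offsets and the block, 1 with the mouse block alone (Ptges, 1.33) and 1 by adjusted p alone (Ptges3). Over all genes, 2704 of 15034 became 3357 of 27238 with DESeq2 and 3055 of 27238 with no filter. With offsets it was 3024 of 15034, with offsets and the block 2940 of 15034, and with the block alone 2547 of 15034. Leaving out 1 mouse gave 0 to 1, 1 to 3 and 0 to 1 members in senescent against control cells and at the 2 doses against control cells. Over all genes these fits called 911 of 15604 to 1456 of 15489 in senescent against control cells. At the doses they called 2262 of 15507 to 2700 of 15479 and 2182 of 15553 to 2656 of 15595.

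Of other pathway genes, the 4 called in senescent against control cells became 7 with DESeq2, 2 with only the 2 groups and 7 by adjusted p alone (2 to 5 without a mouse). Calls over all genes went from 1266 of 15034 to 1819 of 27238 with DESeq2 and 699 of 13710 with the 2 groups. The 3 at 100 µg/mL against senescent cells became 6 with DESeq2 and 5 with no filter (1 to 3 without a mouse). Over all genes, 405 of 15034 became 833 of 27238 and 800 of 27238 (136 of 15453 to 365 of 15540 without a mouse). The 2 at 300 µg/mL became 5 with DESeq2, 5 with no filter, 1 with only the 2 groups, 4 with offsets, 5 with offsets and the block and 1 without the 4 low libraries (1 to 2 without a mouse). Calls over all genes became 643 of 27238 with DESeq2, 580 of 27238 with no filter and 101 of 14011 with the 2 groups. They were 365 of 15034 with offsets, 375 of 15034 with the block too and 118 of 15352 without the 4 libraries. Without a mouse they were 46 of 15553 to 220 of 15540.

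Fold changes that changed sign were uncalled in every fit. At 100 µg/mL against senescent cells, Ptges was 0.01 with DESeq2, RLE factors or no filter, 0.02 with at least 10 counts in every sample and 0.03 with only the 2 groups, and Ptges2 was -0.14 with offsets, -0.15 with offsets and the block and -0.12 without the 4 low libraries. Without those libraries Pla2g4a was 0.11 in senescent against control cells and 0 at 100 µg/mL. Ptgr1 in senescent against control cells was -0.10 with library 5(2) alone and -0.21 without the 4 libraries, and at 100 µg/mL -0.02 with the block, -0.32 with offsets, -0.34 with both and -0.15 without the 4 libraries. Without 1 mouse, ranges that crossed 0 in senescent against control cells were -0.33 to 0.14 (Pla2g4a), -0.06 to 1 (Ptgis) and -0.22 to 0.95 (Ptgr1). At 100 µg/mL against senescent cells they were -0.32 to 0.05 (Pla2g4a), -0.35 to 0.49 (Ptges), -0.05 to 0.60 (Ptges2), -1.19 to 0.10 (Ptgis), -0.09 to 0.73 (Ptgr1) and -0.69 to 0.25 (Ptgs2). At 300 µg/mL they were -0.20 to 0.12 (Pla2g4a), -0.49 to 0.12 (Ptges), -0.57 to 0.09 (Ptges2) and -0.93 to 0.27 (Ptgis). The cause of these changes was not tested. The authors' joint table changed no value, and the block changed no call other than those given here or beside a result. With 3 mice a group, members at the low end rest on few counts, down to 0 for Hpgd, 45 for Ptges, 54 for Ptgr1 and 112 for Ptger4 in a library.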
